A study of Mus musculus with 12 samples.

Results

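Organoids of the foliate papilla (FoP) labelled Foxe1 knock-out were compared with organoids of the circumvallate papilla (CVP) labelled Foxe1 knock-out, to describe which differences between the 2 mouse tongue lines exist in the knock-out state. Organoids are 3-dimensional epithelial cultures, and both papillae lie on the posterior tongue. The comparison used 8 of the 12 RNA sequencing libraries of the series, and genes entered it with 10 or more counts in at least 2 of these 8 libraries, which left 16713 of the 55367 genes in the table. The FoP knock-out group held clones 2.4 and 2.5 and the CVP knock-out group clones 2.9 and 2.10, each clone as 2 duplicate libraries. The other 4 libraries were 2 of FoP wild type and 2 of CVP wild type, and they stand beside the knock-out values without entering the test. All 8 knock-out libraries were labelled as genetically modified, and the labels give neither the way Foxe1 was altered nor the age, sex or strain of the source animals. Each papilla is represented by 1 organoid line, so papilla, line and source animal cannot be told apart. The wild type duplicates carry no clone name and count as 1 culture for each line. Nothing in the labels says that duplicates came from separate cultures, so the clone was taken as the unit that repeats within a line.

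The posterior tongue holds taste buds, a stratified keratinising epithelium and the ducts of small saliva glands that open into the clefts of both papillae. Keratinocytes leave the basal layer, switch keratins and build a cornified envelope of small proline-rich proteins that transglutaminases crosslink. Gland cells secrete antimicrobial proteins, mucins and fluid driven by chloride transport, and basal cells rest on a basement membrane of laminins and type IV collagens. Foxe1 belongs to the forkhead transcription factors and is needed for the thyroid and the palate to form.

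Foxe1 itself did not separate the lines, nor does its transcript check the labels. Its level was 22.3 and 20.0 CPM (counts per M of library size scaled by TMM, the trimmed mean of M values) in FoP clone 2.4 and 11.2 and 11.4 CPM in FoP clone 2.5, against 23.7 and 22.7 CPM in CVP clone 2.9 and 7.32 and 8.45 CPM in CVP clone 2.10. In each line 1 clone was thus high and the other low, and the lines overlapped (log2 fold change 0.07 ± 0.66, adjusted p = 0.963, edgeR quasi-likelihood test on clone sums). FoP wild type held 16.4 and 16.0 CPM and CVP wild type 15.4 and 15.9 CPM.

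The line held the largest share of the sum of squares among the 8 libraries, followed by the clone. A gap between means of 2 clones per line also holds clone spread, so the share does not isolate the line. Over the 11660 genes that averaged 1 or more in log2 CPM, the line took 53.15% of the sum of squares, the clone within a line 34.03% and the duplicate within a clone 12.82%. The median absolute log2 difference was 0.139 between the lines, 0.102 between clones 2.5 and 2.4, 0.0846 between clones 2.10 and 2.9, and 0.0768 to 0.109 between duplicates. In 5645 of these genes (48.4%) the gap between the lines exceeded the gap between the clones of both lines. On the first principal component, which took 55.4% of the variance, the 4 FoP libraries lay between 20.8 and 21.7 and the 4 CVP libraries between -32.3 and -13.8. The next component (18.6%) parted FoP clone 2.5, at 16.6 and 18.6, from FoP clone 2.4, at -18.7 and -16.4, and the one after it (14.9%) parted CVP clone 2.10 from CVP clone 2.9. The first duplicate of clone 2.10 lay farthest out, at -32.3, where its own duplicate lay at -19.6.

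**Figure D1:**
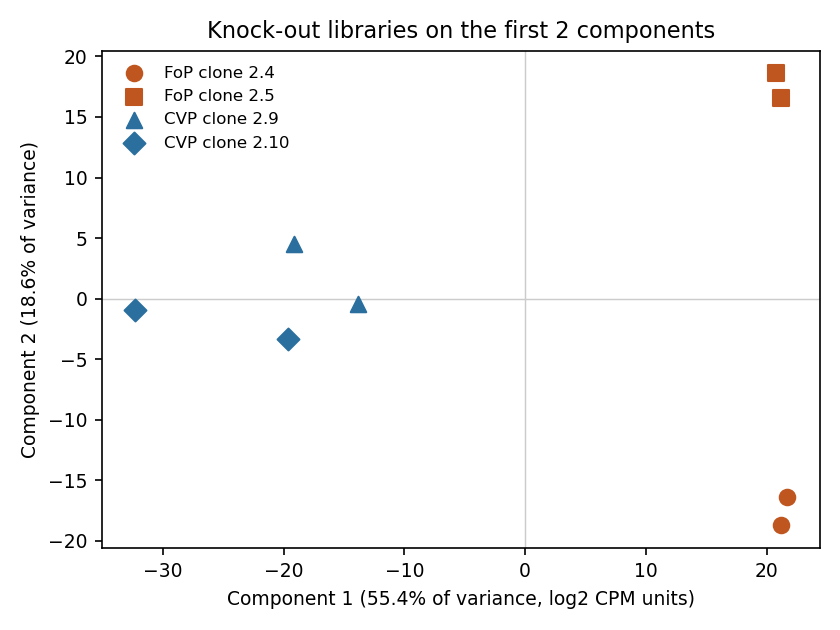
The 8 knock-out libraries on the first 2 principal components of log2 CPM, 1 point per library, with the share of variance on each axis. The FoP libraries, in orange, sit between 20.8 and 21.7 on the first component and the CVP libraries, in blue, between -32.3 and -13.8, while the second component parts the FoP clones.

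The 8 libraries held 59.3 to 65.6 M counts and the wild type libraries 62.1 to 73.6 M, with 21421 to 22602 genes detected at 1 count or more. Of 14 epithelial identity genes all were tested, and their summed level was 14030 to 17010 CPM in the FoP and 15900 to 17950 CPM in the CVP knock-out libraries. Defining markers of leukocytes (Ptprc, Csf1r, Lyz2), endothelium (Cdh5), fibroblasts (Lum), skeletal muscle (Myod1, Myog) and neurons (Elavl4) were at 0 counts in all 8 libraries. Among taste markers the cation channel Trpm5 held 3 to 15 counts, the G protein subunit Gnat3 0 or 1 and the sour-cell channel Pkd2l1 0 to 2. The 15 tested taste genes summed to 895 to 1063 CPM in FoP and 1020 to 1190 CPM in CVP knock-out, and the list holds genes of other epithelial cells such as Krt8. Xist held 11212 to 29831 counts and Y-linked genes at most 2.

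In edgeR's quasi-likelihood test on clone sums, 20 of the 16713 genes (0.12%) had a Benjamini-Hochberg adjusted p under 0.05, 14 higher (0.0838%) and 6 lower (0.0359%) in FoP. Of these 13 differed by more than 2-fold and 0 were predicted genes. Genes of the cornifying keratinocyte, of host defence and of transport were among those higher in FoP, and a matrix protein, a metalloprotease and a flavin monooxygenase among those lower. All 20 kept 4 FoP libraries apart from 4 CVP libraries with no overlap, as did 4225 of all tested genes (25.3%). Of all tested genes 2061 were wholly higher (12.3%) and 2164 wholly lower (12.9%) in FoP. The 4 libraries of a line are 2 clones in duplicate and not 4 independent samples. Spread between clones can thus also part them, here and in the list shares below. An unadjusted p under 0.05 was reached by 3497 genes (20.9%), 1714 higher (10.3%) and 1783 lower (10.7%). The 20 adjusted p-values, 0.0278 to 0.0490, lie near the threshold: without FoP clone 2.4, without FoP clone 2.5 and without the robust option of edgeR none of the 20 passed, although all 20 kept their direction. The count was 158 without CVP clone 2.9, 41 without CVP clone 2.10, 2 without FoP clone 2.4 and 0 without FoP clone 2.5. Leaving out a clone leaves 1 clone in that line, which is assumed to vary like the clones of the other line, so these counts do not measure stability. With 1 library left out it ran from 3 to 97, and it was 97 without the second duplicate of clone 2.9, 7 without the first of 2.10, 41 without the first and 3 without the second of 2.4, and 60 without the second of 2.5. In bulk RNA, fewer cells of a type and less RNA per cell cannot be told apart.

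Of the 14 genes higher in FoP than in CVP knock-out, 3 belong to the list of lingual keratinocyte differentiation. Transglutaminase 1 (Tgm1, chr14:55700009-55713926, minus strand, GRCm38), the enzyme that crosslinks the cornified envelope, stood at 23.5, 32.6, 23.8 and 31.1 CPM in FoP clones 2.4 and 2.5 and at 11.4, 10.2, 7.83 and 10.5 CPM in CVP clones 2.9 and 2.10 (log2 fold change 1.47 ± 0.11, adjusted p = 0.0486). Every FoP library was above every CVP library, and the CVP libraries were also below the wild type libraries, at 30.1 and 26.3 CPM in FoP and 27.4 and 24.1 CPM in CVP. Krt23, a type I keratin (chr11:99477974-99493137, minus strand), held 64.5, 69.1, 70.0 and 66.3 CPM in FoP and 29.6, 29.4, 24.8 and 26.6 CPM in CVP knock-out (1.29 ± 0.08, adjusted p = 0.0486). Here the FoP knock-out libraries lay above wild type, which held 29.5 and 24.9 CPM in FoP and 39.0 and 36.9 CPM in CVP. Suprabasin (Sbsn, chr7:30751471-30756134, plus strand), a secreted protein of the suprabasal layers, held 28.5, 32.7, 32.2 and 32.4 CPM in FoP and 15.2, 19.2, 14.98 and 19.1 CPM in CVP knock-out (0.88 ± 0.07, adjusted p = 0.0490). In wild type Sbsn was also higher in FoP, at 52.3 and 43.4 CPM against 24.1 and 21.03 CPM in CVP.

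The 250 bases before the RefSeq start of these 3 genes (GRCm38.p6) are shown because the genes differ between the lines together while the labelled knock-out is of a forkhead factor, and the letters of 2 motifs were searched in them. These were the forkhead core TGTTTAC on both strands, present in 3.17% of 32851 promoter windows of that length, and an AP-1-like pattern, TGANTCA. The N stands for any base, so the pattern is looser than a fixed site. It reads the same on both strands and is present in 6.75%. Capitals mark the match found, TGAATCA in Sbsn, whose first base lies at position -119 from the start, and the other windows hold neither motif. The windows are chr14:55713493-55713742 (minus strand) for Tgm1, which has a further RefSeq start not shown, chr7:30751221-30751470 (plus strand) for Sbsn and chr11:99493121-99493370 (minus strand) for Krt23. By the GENCODE gene spans printed above, the Tgm1 window lies inside the gene and the Krt23 window overlaps the start of its gene. For these genes the RefSeq start used here thus differs from the GENCODE start.
Tgm1: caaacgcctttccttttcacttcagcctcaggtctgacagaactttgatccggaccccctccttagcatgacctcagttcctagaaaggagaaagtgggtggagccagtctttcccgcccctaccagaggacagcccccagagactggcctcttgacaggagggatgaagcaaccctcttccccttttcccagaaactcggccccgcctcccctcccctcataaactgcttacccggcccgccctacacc
Sbsn: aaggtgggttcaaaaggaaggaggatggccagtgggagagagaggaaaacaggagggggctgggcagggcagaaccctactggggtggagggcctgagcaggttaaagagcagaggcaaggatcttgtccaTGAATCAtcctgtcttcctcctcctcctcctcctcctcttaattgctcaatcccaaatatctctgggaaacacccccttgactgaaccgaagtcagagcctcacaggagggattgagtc
Krt23: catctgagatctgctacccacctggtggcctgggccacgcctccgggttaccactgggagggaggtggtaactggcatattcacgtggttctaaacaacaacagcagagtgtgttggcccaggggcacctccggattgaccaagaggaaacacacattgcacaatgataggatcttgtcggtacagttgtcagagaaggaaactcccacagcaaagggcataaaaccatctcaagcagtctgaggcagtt

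Slc5a1, Crisp1, Plet1, Rab27a and Cd55 were also among the 14 higher in FoP than in CVP knock-out. Slc5a1 (chr5:33104219-33162870, plus strand), the sodium-glucose cotransporter SGLT1, had the largest difference in this direction, with 39.0, 47.2, 50.2 and 43.1 CPM in FoP against 10.6, 10.2, 8.28 and 17.2 CPM in CVP knock-out (log2 fold change 1.96 ± 0.12, adjusted p = 0.0458). Wild type held 32.8 and 34.0 CPM in FoP and 41.4 and 37.0 CPM in CVP, so the CVP knock-out libraries were the low ones. Crisp1 (chr17:40293758-40319207, minus strand), a cysteine-rich secretory protein known from the epididymis, held 324, 299, 399 and 281 CPM in FoP and 90.0, 109, 83.2 and 126 CPM in CVP knock-out (1.68 ± 0.07, adjusted p = 0.0278). For Crisp1 the FoP libraries were the high ones, above 96.5 and 121 CPM in FoP wild type and 149 and 184 CPM in CVP wild type. Plet1, a surface protein of epithelial progenitors, averaged 125 ± 14.8 CPM in FoP and 42.0 ± 6.29 CPM in CVP knock-out (SD, n = 4 libraries from 2 clones each; 1.57 ± 0.08, adjusted p = 0.0328). Rab27a, a small GTPase of secretory vesicles (0.84 ± 0.06), and Cd55, which shields cells from complement (0.84 ± 0.06), were higher as well. Reads of Crisp1 can be shared with its paralog Crisp3, so its level is uncertain.

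Pglyrp1, Sfrp1, Nfkbiz, Pim1, Coq8a and Hmga1 were the other 6 higher in FoP than in CVP knock-out. Pglyrp1, a peptidoglycan recognition protein that kills bacteria, held 57.3, 52.8, 70.2 and 66.3 CPM in FoP and 16.2, 18.9, 13.2 and 24.3 CPM in CVP knock-out (log2 fold change 1.77 ± 0.12, adjusted p = 0.0486). All 8 values were below those of wild type, at 85.1 and 88.0 CPM in FoP and 125 and 160 CPM in CVP. Sfrp1, a secreted Wnt antagonist, held 397, 319, 373 and 307 CPM in FoP and 168, 177, 177 and 199 CPM in CVP knock-out (0.96 ± 0.07, adjusted p = 0.0486). In wild type the order was the other way, with 97.0 and 108 CPM in FoP and 153 and 189 CPM in CVP. Nfkbiz, a nuclear regulator of NF-kappaB targets, was at 1.00 ± 0.05, the kinase Pim1 at 1.11 ± 0.08, Coq8a, needed for coenzyme Q synthesis, at 0.90 ± 0.07, and the chromatin protein Hmga1 at 0.84 ± 0.05. Hmga1 has a near-identical copy in the genome, so its value is uncertain.

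Fmo1, Fbn1, Adam12, Fam189a2, Dock8 and Tra2a were the 6 lower in FoP than in CVP knock-out. Fmo1 (chr1:162829561-162866610, minus strand), a flavin-containing monooxygenase that oxidises foreign compounds, had the largest difference of all 20, with 0.986, 1.42, 1.29 and 1.02 CPM in FoP against 10.8, 12.2, 10.8 and 13.3 CPM in CVP knock-out (log2 fold change -3.31 ± 0.14, adjusted p = 0.0278). The lines differed the same way in wild type, at 2.21 and 2.98 CPM in FoP and 12.3 and 16.7 CPM in CVP. Fibrillin-1 (Fbn1, chr2:125300594-125507993, minus strand), the main protein of microfibrils, held 41.5, 39.2, 44.99 and 51.6 CPM in FoP and 201, 173, 279 and 186 CPM in CVP knock-out (-2.25 ± 0.15, adjusted p = 0.0490). Wild type did not show this: Fbn1 held 28.1 and 24.6 CPM in FoP and 24.8 and 30.7 CPM in CVP, below all knock-out libraries of both lines. Adam12, a membrane metalloprotease, held 29.8, 34.5, 25.6 and 30.9 CPM in FoP and 77.5, 69.8, 105 and 65.5 CPM in CVP knock-out (-1.40 ± 0.11, adjusted p = 0.0490). Fam189a2 (-1.40 ± 0.10), the guanine nucleotide exchange factor Dock8 (-1.13 ± 0.07) and the splicing factor Tra2a (-0.76 ± 0.06) were lower in FoP too. For Adam12, Fam189a2 and Dock8, as for Fbn1, both knock-out groups stood above wild type and the CVP group more so.

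**Figure D2:**
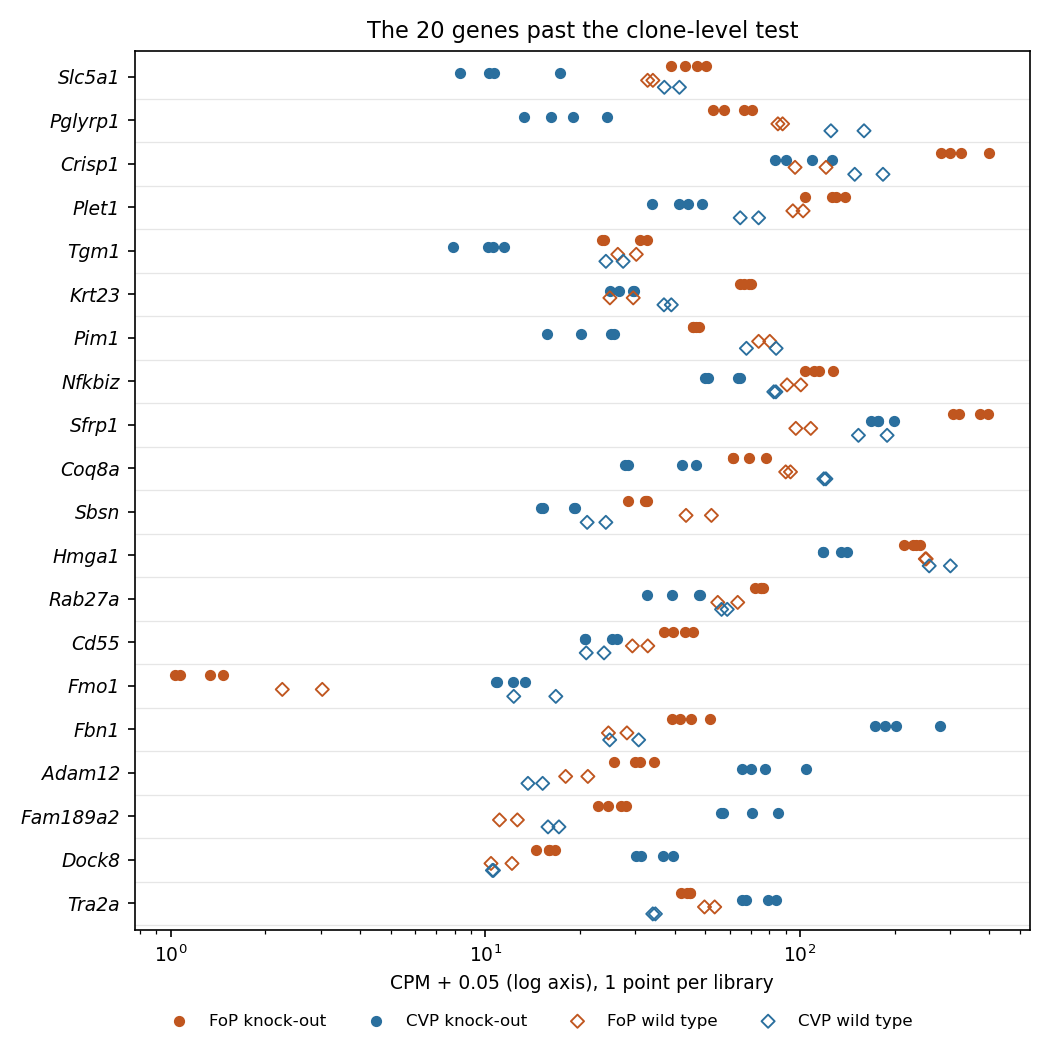
CPM of the 20 genes past the clone-level test in each library, on a log axis after adding 0.05, with 14 higher in FoP above and 6 lower below. Filled orange and blue points are FoP and CVP knock-out libraries, which do not overlap for any of the 20, and open diamonds are wild type, which for Tgm1 (24.1 to 30.1 CPM) lies with FoP knock-out and for Fmo1 parts by line.

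Less strict readings put many more genes apart and are given as description. Limma voom on the 8 libraries with clone as a random block (correlation within a clone 0.272) called 1693 genes (10.1%), 874 higher (5.23%) and 819 lower (4.9%) in FoP, and DESeq2 on the clone sums called 2050 (12.3%), 1120 higher (6.7%) and 930 lower (5.56%). Past 2-fold in the clone-level fit, with no test, lay 478 genes higher (2.86%) and 886 lower (5.3%) in FoP. Of the voom calls, 871 higher and 817 lower genes also showed no overlap of the lines. From these, after their values were seen, the 15 with the largest differences in each direction were taken for description, with predicted genes and those averaging below 1 in log2 CPM left out. Fmo1 is 1 of these, and the other 29 did not pass the clone-level test. From here on, log2 fold changes and their errors are still those of the clone-level edgeR fit, and a p named as voom comes from the voom fit.

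Those higher in FoP included genes of the differentiated surface epithelium and of neutrophil-attracting and antibacterial defence. Sprr2h, a small proline-rich envelope protein, held 5.77, 9.14, 16.1 and 18.0 CPM in FoP and 2.28, 0.918, 0.421 and 1.62 CPM in CVP knock-out (log2 fold change 3.22 ± 0.53, voom adjusted p = 0.0498). Its family has near-identical copies, so the value is uncertain. Krtdap, a keratinocyte differentiation protein, held 6.37, 8.84, 3.86 and 7.27 CPM in FoP and 1.13, 0.601, 0.661 and 0.819 CPM in CVP knock-out (3.02 ± 0.26, voom adjusted p = 0.00965). Both groups were far below wild type, where Krtdap held 38.2 and 48.0 CPM in FoP and 28.9 and 29.0 CPM in CVP. Crct1, of the epidermal differentiation complex, was at 2.59 ± 0.32 and the epithelial serine protease Tmprss11e at 2.40 ± 0.24. The surface protein Psca held 405, 481, 647 and 806 CPM in FoP and 109, 89.8, 45.9 and 97.3 CPM in CVP knock-out (2.77 ± 0.34, voom adjusted p = 0.0104).

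Among defence genes, the neutrophil chemokine Cxcl2 held 23.5, 19.1, 14.97 and 9.002 CPM in FoP and 3.94, 2.82, 2.16 and 3.72 CPM in CVP knock-out (2.40 ± 0.32, voom adjusted p = 0.0235). The chemokine Ppbp averaged 146 ± 26.5 CPM in FoP and 29.5 ± 8.47 CPM in CVP knock-out (2.30 ± 0.23, voom adjusted p = 0.00528). Il1f9, the interleukin-36 gamma of keratinocytes, was at 2.86 ± 0.52 and the peptidoglycan recognition protein Pglyrp4 at 2.27 ± 0.32. The amino acid transporter Slc6a14 held 25.2, 33.1, 39.2 and 42.3 CPM in FoP and 7.19, 4.11, 2.77 and 5.75 CPM in CVP knock-out (2.82 ± 0.24, voom adjusted p = 0.00638). Its FoP libraries were the high ones, since FoP wild type held 6.54 and 5.48 CPM and CVP wild type 5.90 and 3.80 CPM. The others higher in FoP were Pi15, a peptidase inhibitor, Plac8, Ankk1, Lgi2 and Stac2, at 2.21 to 3.06 on the log2 scale.

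Those lower in FoP included matrix, adhesion and signalling genes. Smoc1, a matricellular calcium-binding protein, held 0.728, 0.479, 1.05 and 0.833 CPM in FoP and 9.26, 6.46, 22.8 and 11.7 CPM in CVP knock-out (log2 fold change -4.02 ± 0.53, voom adjusted p = 0.0375). The adhesion molecule Vcam1 held 12.8, 12.1, 4.57 and 4.74 CPM in FoP and 74.0, 55.8, 241 and 150 CPM in CVP knock-out (-3.93 ± 0.88, voom adjusted p = 0.0415). For Vcam1 the clones of each line differed as well, with clone 2.10 above clone 2.9 in CVP and clone 2.4 above clone 2.5 in FoP. Both genes were low in wild type, where Smoc1 did not exceed 0.600 CPM and Vcam1 held 4.72 to 11.5 CPM. The phosphodiesterase Pde3a held 4.95, 5.01, 1.71 and 2.29 CPM in FoP and 23.04, 21.6, 32.1 and 31.2 CPM in CVP knock-out (-2.95 ± 0.55, voom adjusted p = 0.00327). Its order was the other way in wild type, at 4.56 and 3.93 CPM in FoP and 1.36 and 0.988 CPM in CVP.

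Mpped2 and Mtus2 stood otherwise to wild type. Mpped2, a metallophosphoesterase, held 1.73, 1.14, 2.22 and 1.75 CPM in FoP and 9.23, 10.2, 9.35 and 8.39 CPM in CVP knock-out (-2.44 ± 0.22, voom adjusted p = 0.000677), while wild type held 7.79 and 8.94 CPM in FoP and 9.998 and 9.60 CPM in CVP. Here the FoP knock-out libraries alone were low. Mtus2 was lower in FoP in both states, at 1.02 to 3.87 CPM against 14.1 to 24.5 CPM in CVP knock-out and at 2.81 and 2.11 CPM in FoP wild type against 14.9 and 15.1 CPM in CVP wild type. The other genes lower in FoP were Dmbt1, Ildr2, Samd5, Fndc5, the proton pump subunit Atp6v1b1, Mansc1, Rasef, Tafa5 and the glycerol-3-phosphate dehydrogenase Gpd1, at -3.74 to -2.50 on the log2 scale.

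**Figure D3:**
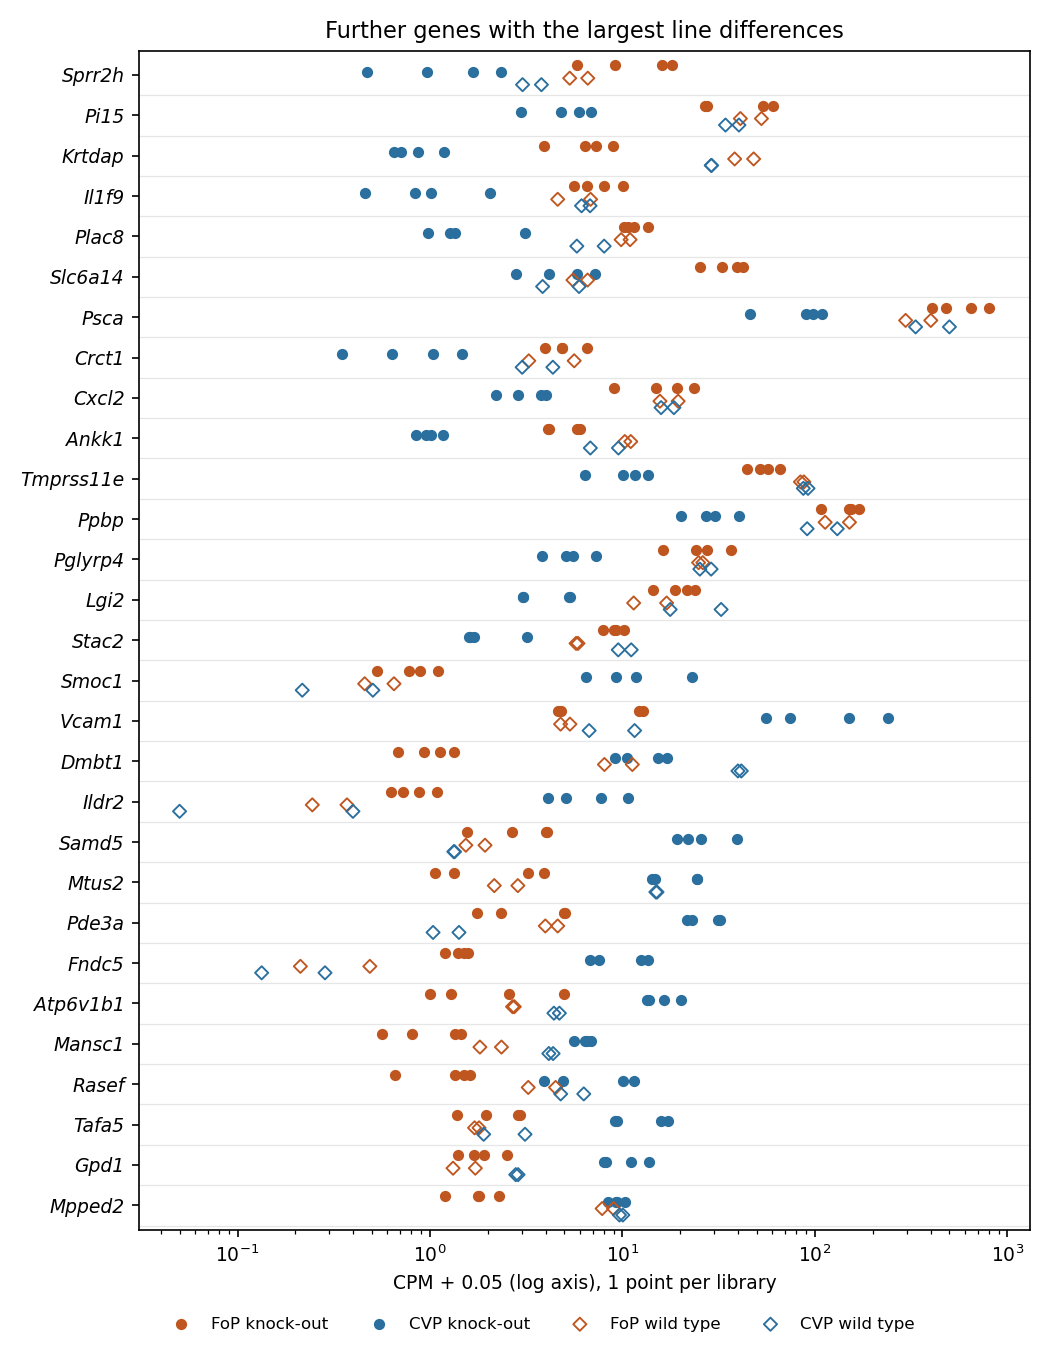
CPM in each library, on a log axis after adding 0.05, of 29 further genes with the largest line differences, 15 higher in FoP knock-out above and 14 lower below. Filled points are knock-out and open diamonds wild type libraries. The knock-out groups do not overlap for these genes, by choice, and Krtdap shows both knock-out groups below wild type while Slc6a14 shows FoP knock-out alone above it.

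Keratinocyte differentiation was the list with the largest share of members wholly higher in FoP among the lists of processes plotted. Of 66 listed genes 52 were tested, and by the clone-level test 3 were higher (Tgm1, Krt23, Sbsn) and 0 lower in FoP. An unadjusted p under 0.05 was reached by 19 higher and 2 lower ones, voom called 10 higher and 2 lower, and DESeq2 16 and 2. The shares over all tested genes, for this and the lists below, were 10.3% higher and 10.7% lower at an unadjusted p under 0.05. They were 5.23% and 4.9% for voom and 6.7% and 5.56% for DESeq2. In 18 members (34.6%) all FoP libraries lay above all CVP libraries and in 2 (3.85%) below, beside 12.3% and 12.9% of all tested genes. The median log2 fold change was 0.54, beside -0.01 over all tested genes. In wild type the median of this list was 0.287, beside 0.009 over all tested genes. The wild type difference had the same sign as the knock-out one in 33 of the 52 members (63.5%) and the opposite sign in 19. Over all tested genes 46.7% had the same sign. Spink5, an inhibitor of epidermal proteases, held 28.3, 37.5, 23.6 and 34.4 CPM in FoP and 17.2, 12.2, 5.70 and 6.998 CPM in CVP knock-out (1.55 ± 0.46, voom adjusted p = 0.0298). Dermokine (Dmkn), a secreted protein of the upper layers, averaged 1037 ± 111 CPM in FoP and 639 ± 128 CPM in CVP knock-out (0.70 ± 0.18, voom adjusted p = 0.0219). Not every differentiation gene did so. The envelope precursor Sprr1a held 824, 1311, 1296 and 1800 CPM in FoP and 987, 1173, 154 and 254 CPM in CVP knock-out, where clone 2.9 lay among the FoP libraries and clone 2.10 below them (1.02 ± 0.90, voom adjusted p = 0.269), and the keratins Krt13, Krt4 and Krt16 and the envelope protein Ivl overlapped as well. The desmosomal plakophilin Pkp1 was 1 of the 2 lower members (-0.27 ± 0.08, voom adjusted p = 0.0439), the other being Notch3.

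Basal and stem cell genes pointed both ways. Of 34 listed 33 were tested, 0 passed the clone-level test, 6 higher and 8 lower reached an unadjusted p under 0.05, voom called 3 higher and 4 lower and DESeq2 6 and 6. In 9 members (27.3%) the FoP libraries lay wholly above and in 8 (24.2%) wholly below, beside 12.3% and 12.9% of all tested genes. Lgr5, a receptor for R-spondins known from posterior tongue stem cells, held 1.91, 2.00, 1.06 and 1.11 CPM in FoP and 7.27, 5.32, 7.15 and 4.05 CPM in CVP knock-out (log2 fold change -1.97 ± 0.33, voom adjusted p = 0.0117). Its wild type values were 0.408 and 0.519 CPM in FoP and 1.09 and 0.974 CPM in CVP, so in each line knock-out libraries were above wild type and CVP above FoP. Smoc2, another matricellular protein known from Lgr5 cells of the intestine, averaged 0.701 ± 0.339 CPM in FoP and 3.22 ± 1.31 CPM in CVP knock-out (-2.19 ± 0.39, voom adjusted p = 0.0446). On the other side were Trp63, the p63 factor of stratified epithelia, with 635, 554, 554 and 515 CPM in FoP and 392, 416, 388 and 442 CPM in CVP knock-out (0.47 ± 0.08, voom adjusted p = 0.0103), the integrin Itga6 (0.32 ± 0.09) and the receptor Lgr4 (0.28 ± 0.08). The basal keratins Krt5 (-0.12 ± 0.14) and Krt14 (-0.54 ± 0.14, voom adjusted p = 0.0827) overlapped between the lines, and the hemidesmosome collagen Col17a1 averaged 3422 ± 98.8 CPM in FoP and 3426 ± 47.5 CPM in CVP.

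Extracellular matrix genes were lower in FoP more often than higher. Of 102 listed 84 were tested, and by the clone-level test Fbn1 was lower and 0 were higher in FoP. An unadjusted p under 0.05 was reached by 6 higher and 20 lower members, voom called 4 higher and 17 lower, and DESeq2 4 and 20. In 6 members (7.14%) the FoP libraries lay wholly above and in 24 (28.6%) wholly below, beside 12.3% and 12.9% of all tested genes. The median log2 fold change was -0.13. Of basement membrane genes, Col4a3 averaged 28.9 ± 4.71 CPM in FoP and 61.7 ± 6.17 CPM in CVP knock-out (-1.10 ± 0.12, voom adjusted p = 0.00426) and its neighbour Col4a4 was at -1.10 ± 0.13. Col9a3, a chain of the cartilage collagen IX, held 93.0, 90.7, 131 and 129 CPM in FoP and 247, 190, 410 and 298 CPM in CVP knock-out (-1.37 ± 0.33, voom adjusted p = 0.0247). The matrix protein Spon1 held 62.2, 73.8, 44.2 and 42.1 CPM in FoP and 93.7, 119, 226 and 210 CPM in CVP knock-out (-1.54 ± 0.47, voom adjusted p = 0.0446). Wild type Spon1 lay at 9.53 and 5.86 CPM in FoP and 9.03 and 6.78 CPM in CVP, below every knock-out library. The collagenase Mmp13 (-2.31 ± 0.45) and the gelatinase Mmp9 (-2.73 ± 0.65) were lower in FoP, as was Sparc (-0.69 ± 0.21), while Fbln1, a fibulin (1.12 ± 0.18), and Efemp1 (0.99 ± 0.19) were higher. Of 15 fibroblast markers 11 were tested, with Fbn1 among them, and their summed level was 2937 to 6113 CPM in FoP and 3163 to 5213 CPM in CVP knock-out, most of it Postn (-0.46 is the median log2 fold change of the 11). Of these 11 fibroblast markers 8 had a negative log2 fold change, 3 (27.3%) lay wholly lower (Fbn1, Vim and Pdgfrb) and 0 wholly higher in FoP, and 0 higher and 2 lower were called by voom and 0 and 3 by DESeq2. Of defining fibroblast genes Lum was at 0, Col3a1 held 0 to 9, Dcn 12 to 30, Col1a1 21 to 81, Col1a2 22 to 194 and Pdgfra 167 to 349 counts. Their part in the matrix list was not tested.

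Adhesion and guidance genes also lay apart in both directions. Of 61 tested members 12 (19.7%) lay wholly higher and 17 (27.9%) wholly lower in FoP, beside 12.3% and 12.9% of all tested genes. The clone-level test called 0, with 12 higher and 16 lower at an unadjusted p under 0.05, voom called 8 and 10 and DESeq2 10 and 12. N-cadherin (Cdh2) held 0.0911, 0.0928, 0.222 and 0.364 CPM in FoP and 4.83, 3.51, 14.1 and 6.10 CPM in CVP knock-out (log2 fold change -5.23 ± 0.82, voom adjusted p = 0.0458), while no wild type library exceeded 0.0294 CPM. The guidance ligand Slit2 held 62.0, 61.8, 55.8 and 53.4 CPM in FoP and 103, 98.1, 125 and 110 CPM in CVP knock-out (-0.91 ± 0.11, voom adjusted p = 0.00105). Among tight junction claudins, Cldn4 was higher (1.11 ± 0.19, voom adjusted p = 0.0268) and Cldn2, which forms cation pores, lower in FoP (-2.27 ± 0.43, voom adjusted p = 0.0160). Epha5, an ephrin receptor, held 0 counts in all FoP libraries and averaged 0.294 CPM in CVP knock-out, at least 6.13-fold lower in FoP against a floor of 3 counts per library, and at least 3.89-fold without the first duplicate of clone 2.10.

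Saliva products were few and mostly low in both lines. Of 56 listed 21 were tested, and 0 passed the clone-level test. An unadjusted p under 0.05 was reached by 2 higher and 7 lower members, voom called 1 higher and 3 lower and DESeq2 2 and 4. In FoP 2 members (9.52%) lay wholly above and 6 (28.6%) wholly below, beside 12.3% and 12.9% of all tested genes. The median log2 difference of the list was -0.201 in knock-out and -0.841 in wild type, where it was not tested. Dmbt1, a scavenger receptor protein of saliva, held 1.29, 1.08, 0.635 and 0.884 CPM in FoP and 10.6, 9.08, 16.9 and 15.3 CPM in CVP knock-out (log2 fold change -3.74 ± 0.38, voom adjusted p = 0.00261). In wild type it was lower in FoP too, at 8.01 and 11.2 CPM against 39.8 and 41.4 CPM in CVP. Wfdc18, a whey acidic protein relative, held 28.8, 52.2, 55.1 and 43.6 CPM in FoP and 182, 128, 348 and 140 CPM in CVP knock-out (-2.16 ± 0.28, voom adjusted p = 0.0379). Clusterin (Clu) averaged 309 ± 55.7 CPM in FoP and 567 ± 80.1 CPM in CVP knock-out (-0.87 ± 0.20, voom adjusted p = 0.0121). Lactoferrin (Ltf) overlapped, at 10020 to 11940 CPM in FoP and 5874 to 10780 CPM in CVP knock-out (0.40 ± 0.21, voom adjusted p = 0.166).

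Gland regulators and fluid secretion genes split evenly, 7 of 33 tested (21.2%) lying wholly above and 7 (21.2%) wholly below in FoP. Over all tested genes the shares were 12.3% and 12.9%. The clone-level test called 0, with 8 higher and 6 lower at an unadjusted p under 0.05, voom called 5 and 6 and DESeq2 6 and 6. The basolateral chloride cotransporter Slc12a2 held 652, 690, 645 and 596 CPM in FoP and 958, 1041, 1312 and 1258 CPM in CVP knock-out (log2 fold change -0.82 ± 0.14, voom adjusted p = 0.00272). The chloride channel Ano1 (-0.49 ± 0.12), the bicarbonate cotransporter Slc4a4 (-0.47 ± 0.06) and the secretory factor Spdef (-1.69 ± 0.39) were lower in FoP as well. Kcnma1, the BK potassium channel, averaged 0.189 ± 0.137 CPM in FoP and 3.39 ± 1.32 CPM in CVP knock-out (-4.19 ± 0.62, voom adjusted p = 0.00856). Those higher in FoP were the sodium channel subunit Scnn1a (0.99 ± 0.14), the chloride transporter Slc26a9 (2.00 ± 0.38), the ectodysplasin receptor Edar (0.72 ± 0.12), the receptor Fgfr2 (0.39 ± 0.05) and the factor Ehf (0.37 ± 0.09), with voom adjusted p from 0.00461 to 0.0275. Of 38 taste genes 15 were tested, with 1 (6.67%) wholly above and 4 (26.7%) wholly below in FoP. The clone-level test called 0 of them (1 higher and 2 lower at an unadjusted p under 0.05, 0 and 1 by voom, 0 and 2 by DESeq2).

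In the Wnt list Sfrp1 was the 1 gene of 42 tested that passed the clone-level test. In FoP 10 members (23.8%) lay wholly above and 8 (19%) wholly below, beside 12.3% and 12.9% of all tested genes. Secreted inhibitors beside Sfrp1 included Notum, which inactivates Wnt ligands, at 1.43, 1.42, 1.33 and 1.67 CPM in FoP and 0.449, 0.427, 0.271 and 0.494 CPM in CVP knock-out (log2 fold change 1.83 ± 0.29, voom adjusted p = 0.00937). The ligand Wnt9a averaged 12.02 ± 0.816 CPM in FoP and 6.50 ± 0.576 CPM in CVP knock-out (0.89 ± 0.12, voom adjusted p = 0.00326). The frizzled receptors Fzd1 (-0.50 ± 0.13), Fzd3 (-0.50 ± 0.14) and Fzd6 (-0.27 ± 0.06) were lower in FoP, while the receptor Lgr4 was higher. In the Hedgehog, Notch and BMP/TGF-beta list, 6 of 55 tested (10.9%) lay wholly above and 8 (14.5%) wholly below, near the background. The Notch target Hey1 held 1.44, 0.990, 2.22 and 2.38 CPM in FoP and 6.69, 5.62, 14.6 and 8.70 CPM in CVP knock-out (-2.35 ± 0.48, voom adjusted p = 0.0221). Cyp26b1, which breaks down retinoic acid, averaged 21.8 ± 1.39 CPM in FoP and 8.44 ± 2.04 CPM in CVP knock-out (1.37 ± 0.20, voom adjusted p = 0.00141), while wild type held 22.1 and 19.03 CPM in FoP and 20.8 and 20.8 CPM in CVP.

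Of 45 patterning factors tested, 5 (11.1%) lay wholly above and 7 (15.6%) wholly below in FoP, beside 12.3% and 12.9% of all tested genes, with 0 past the clone-level test (2 higher and 6 lower at an unadjusted p under 0.05, 2 and 2 by voom, 2 and 6 by DESeq2). Among these the homeobox gene Shox2 held 2.55, 1.72, 0.730 and 1.25 CPM in FoP and 8.40, 6.74, 25.2 and 19.8 CPM in CVP knock-out, with the clones of each line well apart (log2 fold change -3.27 ± 0.77, voom adjusted p = 0.0659). Msx2, another homeobox gene, held 0 counts in all FoP libraries against 0.0929, 0.301, 1.91 and 1.47 CPM in CVP knock-out. It was at least 19.7-fold lower in FoP against the floor of 3 counts per library, 12.95-fold without the first duplicate of clone 2.10 and 4.11-fold against clone 2.9 alone, and was also at 0 in wild type. Pitx1, a homeobox factor of the oral epithelium, held 145 to 163 CPM in FoP and 143 to 172 CPM in CVP knock-out (-0.01 ± 0.07).

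Of 60 detoxifying enzymes tested, 17 (28.3%) lay wholly above and 6 (10%) wholly below in FoP, beside 12.3% and 12.9% of all tested genes. Over the whole list 33 had a positive and 27 a negative log2 fold change, with a median of 0.05. The 1 gene past the clone-level test, Fmo1, was lower. An unadjusted p under 0.05 was reached by 17 higher and 6 lower members, voom called 9 and 4 and DESeq2 13 and 4. The glutathione transferase Gsto1 held 3113, 3502, 3589 and 3986 CPM in FoP and 1231, 1540, 840 and 1353 CPM in CVP knock-out (log2 fold change 1.52 ± 0.15, voom adjusted p = 0.00965), and 3314 to 3896 CPM in wild type. Gclm, a subunit of the enzyme that starts glutathione synthesis (0.64 ± 0.06), and the cystine transporter Slc7a11 (1.21 ± 0.33) were higher in FoP too. In the list of chemokines, cytokines and host defence, 12 of 51 tested (23.5%) lay wholly above and 8 (15.7%) wholly below, with 0 past the clone-level test (11 and 11 at an unadjusted p under 0.05, 6 and 4 by voom, 10 and 6 by DESeq2). Il1a averaged 30.2 ± 2.22 CPM in FoP and 7.35 ± 3.56 CPM in CVP knock-out (2.04 ± 0.44, voom adjusted p = 0.00577). The mucosal chemokine Cxcl17 went the other way, at 7.82, 9.38, 7.70 and 6.62 CPM in FoP and 30.7, 36.5, 41.8 and 46.1 CPM in CVP knock-out (-2.29 ± 0.17, voom adjusted p = 0.000825), and it was also lower in FoP in wild type, at 12.7 and 14.5 CPM against 36.1 and 37.6 CPM in CVP. Of 15 immune markers 4 were tested, with a summed level of 103 to 169 CPM in FoP and 64.2 to 113 CPM in CVP knock-out, and the defining markers Ptprc, Csf1r and Lyz2 were at 0.

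In the cell cycle and metabolic lists most members had log2 fold changes of 1 sign, where all tested genes split into 8072 positive and 8641 negative. The clone-level test called 0 genes of these lists. Over all tested genes 12.3% lay wholly above and 12.9% wholly below in FoP. Of 57 cell cycle genes 46 had a negative and 11 a positive log2 fold change, with a median of -0.28, while 4 (7.02%) lay wholly above and 7 (12.3%) wholly below in FoP (4 higher and 19 lower at an unadjusted p under 0.05, 2 and 4 by voom, 3 and 12 by DESeq2). The proliferation marker Mki67 held 24.9, 22.7, 27.7 and 31.3 CPM in FoP and 50.5, 37.2, 41.8 and 25.3 CPM in CVP knock-out, so the lines overlapped. In wild type the median of the cell cycle list was 0.57, and Mki67 held 103 and 105 CPM in FoP and 48.9 and 52.1 CPM in CVP. The CVP duplicates differ here by as much as the lines, and how far this shapes the list was not tested. Of 41 cholesterol and fatty acid synthesis genes 35 were negative (median -0.36), with 0 wholly above and 6 (14.6%) wholly below in FoP (0 and 8 at an unadjusted p under 0.05, 0 and 3 by voom, 0 and 7 by DESeq2). Of 36 glycolysis and hypoxia genes 30 were positive (median 0.24), with 3 (8.33%) wholly above and 0 below (7 and 0 at an unadjusted p under 0.05, 1 and 0 by voom, 6 and 0 by DESeq2), among them the glucose transporter Slc2a1 (0.42 ± 0.12).

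**Figure D4:**
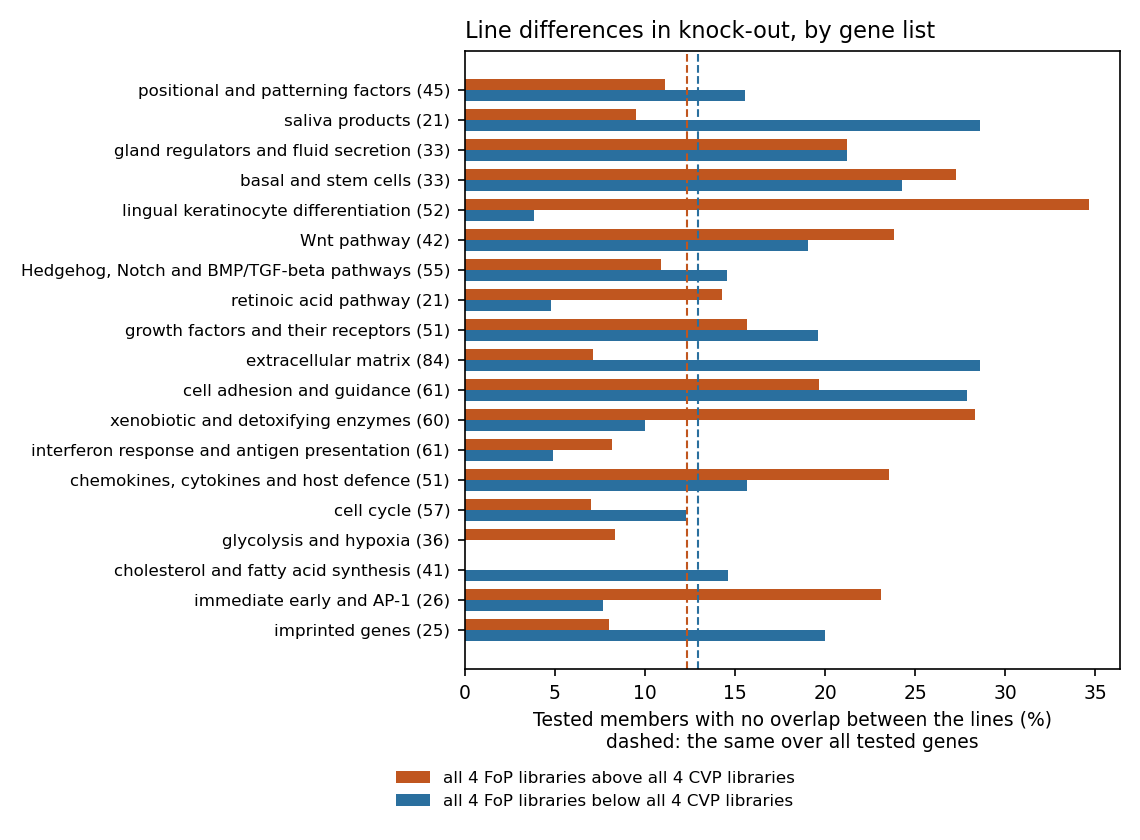
Share of tested members of each list in which all 4 FoP knock-out libraries lay above (orange) or below (blue) all 4 CVP knock-out libraries, with the number tested in parentheses and the same shares of all tested genes, 12.3% and 12.9%, as dashed lines. Keratinocyte differentiation has 34.6% above and 3.85% below, and extracellular matrix 7.14% above and 28.6% below.

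Set beside wild type, the CVP knock-out libraries lay outside the wild type range more often than the FoP ones among genes picked by voom. Of the 871 genes higher in FoP knock-out by voom with no overlap, all 4 CVP knock-out libraries lay below all 4 wild type libraries in 725 (83.2%), while the FoP knock-out libraries lay above all wild type libraries in 86 (9.87%) and below them in 324 (37.2%). Over all tested genes CVP knock-out lay below wild type in 22.7% and FoP knock-out above it in 15.1%. Of the 817 genes lower in FoP knock-out, the CVP knock-out libraries lay above all wild type libraries in 679 (83.1%), the FoP libraries below them in 84 (10.3%) and above them in 293 (35.9%), where 23.2% and 16.9% of all genes had CVP above and FoP below. The 20 called genes did not show this. In the 14 higher, CVP knock-out lay below wild type in 10, and FoP knock-out above it in 7 and below it in 4. In the 6 lower, CVP knock-out lay above wild type in 5, and FoP knock-out above it in 4 and below it in 1. These sets were chosen on the same knock-out values, so the shares are a description with no test.

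The direction of the line difference was shared with wild type for some genes and not for others. The wild type difference had the same sign as the knock-out difference in 354 of the 871 higher genes (40.6%) and in 404 of the 817 lower genes (49.4%), beside 46.7% of all tested genes. Of the 20 called genes, 7 of the 14 higher and 3 of the 6 lower had the same sign in wild type, with Fmo1 and Sbsn the ones that differed by more than 2-fold there. The interaction of line and genotype, tested on sums over 6 cultures, was called for 0 of 16713 genes in edgeR (0%), with 2629 (15.7%) at an unadjusted p under 0.05 and 1081 called by DESeq2 (6.47%). The edgeR count was 13 without CVP clone 2.9, 2 without its first duplicate and 1 without CVP clone 2.10. For Sfrp1 the knock-out difference exceeded the wild type one by 1.71 on the log2 scale and for Crisp1 by 2.31, with adjusted p = 0.128 for each. For Sbsn the interaction was -0.22 and for Fmo1 -0.82. The spread in this test comes from the clones alone, since wild type has 1 culture per line.

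**Figure D5:**
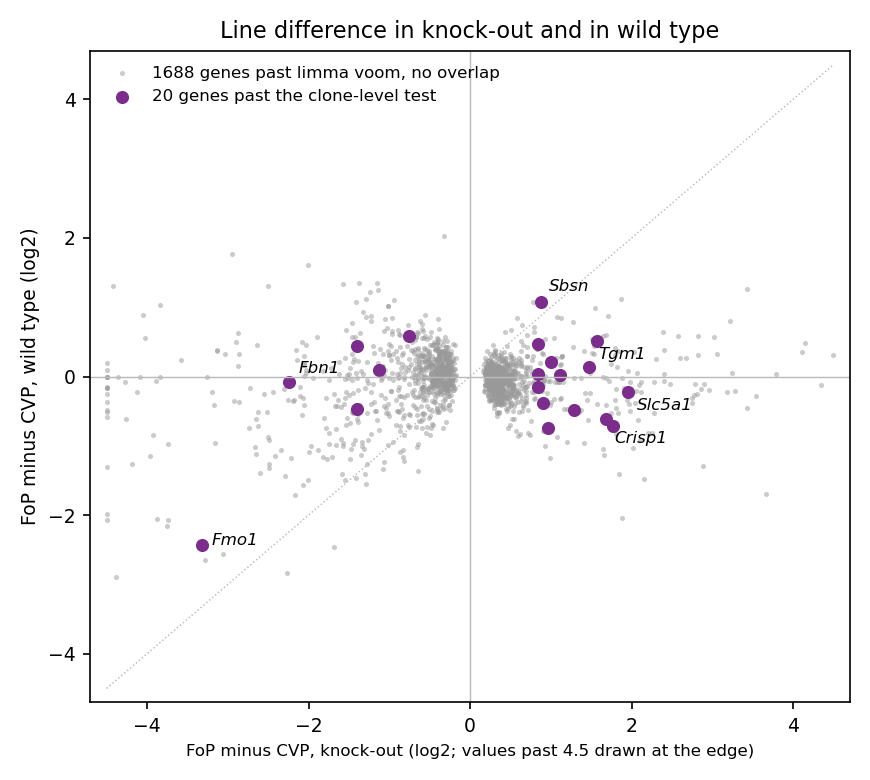
Difference of FoP minus CVP on the log2 scale in knock-out (x axis) and in wild type (y axis) for 1688 genes past limma voom with no overlap between the knock-out lines (grey) and the 20 genes past the clone-level test (purple). The gap at the centre of the x axis comes from the choice of genes, and most points lie near 0 on the y axis. Sbsn lies near the dotted line of equal differences. Fmo1 is lower in FoP in both states, with the larger difference in knock-out.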

How the data were processed

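RNA of mouse tongue organoids, isolated with Qiagen reagents, was made into 12 stranded poly(A) libraries (TruSeq), per the labels' protocols. The deposited values are raw counts per gene; per the submitters' processing notes the authors used STAR and featureCounts, with hg38 as the genome and no version given. The counts carry mouse symbols, of which 97.9% of those tested match exactly 1 gene of GENCODE M21 (GRCm38), the source of the positions printed. Whether counting used strand was not given in the sources used here; reads of overlapping or antisense genes cannot be told apart.

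Genes with 10 or more counts in at least 2 of the 8 knock-out libraries were tested (16713). Counts were summed over the 2 duplicates of a clone, scaled by TMM and tested with 2 against 2 clones by the robust quasi-likelihood test of edgeR 4.0.16 in R 4.3.3, with p adjusted over the whole table by Benjamini-Hochberg to a threshold of 0.05. The fit has 2 residual and a median of 2.94 prior degrees of freedom. Standard errors were approximated by dividing the log2 fold change by the square root of F. The interaction of line and genotype used sums over 6 cultures. CPM used the TMM-scaled sizes of all 12 libraries, and means ± SD are over 4 libraries from 2 clones. Line differences in wild type are log2 ratios of mean CPM plus 0.1, with no test. Limma voom (limma 3.58.1) with clone as a random block and DESeq2 1.42.0 were alternatives, beside other scalings, filters, units and left-out clones and libraries. The p-values measure the spread between 2 clones of 1 line per papilla.

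The comparison and the 28 gene lists were chosen with earlier results of these data known. The naming rule took called genes without overlap that averaged 1 or more in log2 CPM, up to 15 in each direction by size, called list members and Foxe1, and left out predicted genes. It named all 20 called genes; the 29 genes of the wider set and the other list members named were chosen after their values were seen. Folds against a group at 0 counts are bounds that put each library at 3 counts; they cover counting error only. Promoter sequences are from RefSeq, GRCm38.p6. The scripts were tested on simulated data.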

Additional observations from a re-analysis of the deposited data

Results flagged for a closer look

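Within the 4 libraries of a group, 1 library stood far from the other 3 in 2 of 100 groups checked. The cut-off used flags about 1 in 20 groups by chance when the 4 values are independent. These groups are 2 clones in duplicate, so that rate does not apply to them. Sbsn was lowest in the first duplicate of FoP clone 2.4, at 28.5 CPM, with the other 3 FoP knock-out libraries at 32.2 to 32.7 CPM, and all 4 stayed above the CVP knock-out libraries. Stac2 was highest in the second duplicate of CVP clone 2.10, at 3.14 CPM, with the other 3 CVP knock-out libraries at 1.55 to 1.65 CPM, and all 4 stayed below the FoP knock-out libraries.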

How the results depend on the processing

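All 20 called genes kept their direction under every alternative run, and the number of calls (20, with 14 higher and 6 lower in FoP) moved widely. It was 32 with DESeq2 size factors (20 higher, 12 lower), 2050 with the DESeq2 Wald test (1120 and 930), 1585 with no filter (806 and 779), 5 with 1 CPM required in 4 libraries (3 and 2), 3269 with libraries as samples (1601 and 1668), 1693 with limma voom and clone as block (874 and 819), 19 with all 6 cultures fitted and 38 with counts halved (22 and 16), tried because every library had more genes at 4 counts (798 to 869) than at 3 (509 to 629). It was 0 against a 2-fold change (0 and 0; 384 genes at an unadjusted p under 0.05) and 0 without the robust option (0 and 0; 3494 at an unadjusted p under 0.05), an alternative chosen after seeing the data. With clones or libraries left out it ran from 0 to 158 (higher 0 to 85, lower 0 to 73); the 0 came without clone 2.5, with 3035 genes at an unadjusted p under 0.05 in edgeR. Of the 20, 5 remained called with the stricter filter, 13 without clone 2.10 and 20 without clone 2.9. Genes with no overlap numbered 1891 to 2318 in either direction under other scalings and filters, and with clones or libraries left out 2265 to 3644 higher and 2367 to 3874 lower, where fewer libraries have to be apart. The interaction count of 0 was 1081 with the DESeq2 Wald test, 2713 with libraries as samples, 0 to 13 with clones or libraries left out and 0 with the other scaling and the stricter filter. Duplicate numbers were not taken as pairing: the differences between duplicates correlated at 0.441 between the CVP clones and 0.26 between the FoP clones, but at -0.164 to 0.03 between clones of different lines. With the duplicate number as a replicate block, libraries as samples gave 2915 calls (1475 higher, 1440 lower) and 2378 for the interaction. The cause of these moves was not tested. Halving the counts keeps the ratios between libraries and adds no sampling noise, so it is not a change of depth. How the number of calls depends on depth was not tested.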

Other observations

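Growth factor, immediate early, interferon and imprinted genes held 0 calls of the clone-level edgeR test, and the values below are a description. Over all tested genes 12.3% lay wholly higher and 12.9% wholly lower in FoP. Of 51 growth factor and receptor genes tested, 8 (15.7%) lay wholly higher and 10 (19.6%) wholly lower in FoP than in CVP knock-out, 8 and 9 reached an unadjusted p under 0.05, and voom called 6 and 8 and DESeq2 8 and 8. The EGF receptor ligand Hbegf held 27.2, 31.9, 29.6 and 32.8 CPM in FoP and 18.6, 22.2, 18.2 and 19.3 CPM in CVP knock-out (log2 fold change 0.63 ± 0.08, voom adjusted p = 0.00726), while Fgf1 was lower in FoP (-0.66 ± 0.08, voom adjusted p = 0.00706). Of 26 immediate early and AP-1 genes, 6 (23.1%) lay wholly higher and 2 (7.69%) wholly lower, with 8 and 2 at an unadjusted p under 0.05, 5 and 0 called by voom and 5 and 0 by DESeq2. The small Maf factor Maff held 63.5, 72.9, 67.4 and 69.3 CPM in FoP and 26.2, 42.5, 21.7 and 36.9 CPM in CVP knock-out (1.10 ± 0.09, voom adjusted p = 0.0264). Of 61 interferon and antigen presentation genes, 5 (8.2%) lay wholly higher and 3 (4.92%) wholly lower, with 4 and 3 at an unadjusted p under 0.05, 2 and 1 called by voom and 3 and 1 by DESeq2. H2-Ab1, a class II antigen-presenting chain, held 34.2, 33.8, 51.7 and 61.9 CPM in FoP and 13.8, 15.8, 8.78 and 13.4 CPM in CVP knock-out (1.81 ± 0.32, voom adjusted p = 0.0146). Of 25 imprinted genes, 2 (8%) lay wholly higher and 5 (20%) wholly lower, with 2 and 2 at an unadjusted p under 0.05, 0 and 1 called by voom and 2 and 2 by DESeq2. Of 21 retinoic acid genes, 3 (14.3%) lay wholly higher and 1 (4.76%) wholly lower, with 4 and 1 at an unadjusted p under 0.05, 3 and 0 called by voom and 3 and 1 by DESeq2. Myoepithelial markers summed to 5428 to 6989 CPM in FoP and 6746 to 8153 CPM in CVP knock-out over 11 tested genes, with 1 wholly higher (Trp63) and 1 wholly lower (Mylk). Endothelial markers (5 tested) summed to 129 to 173 and 124 to 179 CPM, nerve and glia markers (4) to 1.70 to 2.64 and 2.27 to 6.46 CPM, and skeletal muscle markers (4) to 1.46 to 2.49 and 1.35 to 2.60 CPM in FoP and CVP knock-out. None of 5 sex chromosome genes tested lay apart between the lines.

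Some genes were expressed in 1 clone alone among the 8 knock-out libraries, taken as at least 50 counts in both duplicates and at most 2 counts in each of the other 6 libraries. Clone 2.5 of FoP held 932 and 812 counts of Ly6k, a surface protein of the Ly6 family, against at most 2 counts in any other knock-out library, while wild type held 17 and 13 counts in FoP and 72 and 52 counts in CVP. Clone 2.10 of CVP held 170 and 171 counts of the homeobox gene Vax2, which was at 0 counts in the other knock-out libraries and in all 4 wild type libraries. The same clone held 80 and 85 counts of Gabrd, a GABA receptor subunit, which was at 0 in the other knock-out libraries and at 76 and 69 counts in FoP wild type and 12 and 36 counts in CVP wild type. A predicted gene did so in clone 2.5, and no gene met the rule in clones 2.4 and 2.9.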
